A study of Homo sapiens with 6 samples.

Results

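The ATP-binding cassette (ABC) family of PANC-1, a widely used cell line of human pancreatic ductal adenocarcinoma, was examined after silencing of METTL16, an RNA methyltransferase that acts on adenosine. The members were the genes of the deposited expression table with a name of subfamilies ABCA to ABCG followed by a number, with pseudogenes and antisense genes left out. Of 58735 genes in the table, 46 were members, carrying 45 different names, since ABCF2 was given to a pair of genes, and 1 pseudogene with a matching name (ABCC13) was left out. The family was taken up because ABCG2, its breast cancer resistance protein gene, was among the genes that fell most in these same libraries. The values of ABCG2 are therefore a description and carry no test.

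RNA-seq was performed on 6 libraries, 3 from PANC-1 cells transfected with control siRNA (si-NC) and 3 from cells transfected with siRNA against METTL16 (si-METTL16). All 6 share the line and the culture medium. A transfection label of the controls reads WT while their titles read si-NC, and the titles were followed. The methods describe biological triplicates and stable transfection, and do not say which of the listed METTL16 siRNAs was sequenced, so an effect of METTL16 loss and an effect of the siRNA itself cannot be told apart. METTL16 had 1546, 1641 and 1764 counts in si-NC and 571, 528 and 627 in si-METTL16, which is 35.9% of the control level (log2 fold change -1.48, edgeR quasi-likelihood test, adjusted p = 8.3e-05). Total counts ranged from 15725298 to 18054436, and the members held between 0.219% and 0.246% of them. All 6 ductal epithelial markers that were looked at had at least 58 counts in each library. KRT19, KRT7 and SOX9 were lower in si-METTL16 (log2 fold changes -1.40, -0.84 and -0.25), as were 17.5% of all tested genes. KRT8, KRT18 and EPCAM were not called at an adjusted p under 0.05 (log2 fold changes -0.23, 0.20 and 0.44). Of 13 markers of acinar, islet, blood, endothelial and stromal cells, 12 had at most 14 counts, and the collagen gene COL1A1, with between 5459 and 15086 counts, was higher in si-METTL16 (log2 fold change 1.27). The part of these markers in the results on the family was not tested. In bulk RNA, fewer cells of a type and less RNA per cell cannot be told apart.

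ABC proteins bind and hydrolyse ATP with paired cassettes, and most use it to move a substrate across a membrane. Several export drugs and their conjugates from the cell (ABCB1, also called P-glycoprotein, ABCG2 and many members of subfamily C), others move lipids, sterols, acyl-CoA, metal complexes or cobalamin, some open or regulate channels, and the members of subfamilies E and F have no membrane domain and work on ribosomes. Exporters such as ABCG2 and ABCC1 are known in pancreatic cancer and other tumours for lowering the amount of cytotoxic drug that stays in the cell.

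Since a promoter is where many regulators of ABC genes act, the 250 bases upstream of a transcription start were read for the members found in the RefSeq promoter table (GRCh38.p14), and 4 are shown: ABCG2 and ABCC2, the drug exporters with the lowest log2 fold changes, ABCA2, the lipid transporter with the smallest adjusted p, and ABCE1, an abundant member that did not pass the test. Each is written 5′ to 3′ on the strand of the gene and ends at the base before the start nearest to that of the MANE Select transcript. The window of ABCG2 lies at chr4:88158640-88158889 on the minus strand, within the ABCG2 gene of the deposited table, since the table carries the gene up to a more distant start. That of ABCC2 lies at chr10:99782390-99782639 on the plus strand, that of ABCA2 at chr9:137028238-137028487 on the minus strand and that of ABCE1 at chr4:145098061-145098310 on the plus strand. The windows of ABCA2 and ABCE1 also lie within their genes of the deposited table, whereas that of ABCC2 lies just before its gene. Capitals mark matches, on either strand, to any of 6 motifs: the core of the aryl hydrocarbon receptor element (GCGTG), the core of the hypoxia element (ACGTG), the antioxidant element (TGACNNNGC), the E-box (CACGTG, which always holds the hypoxia core), the GC box (GGGCGG) and the CCAAT box (CCAAT).
ABCG2: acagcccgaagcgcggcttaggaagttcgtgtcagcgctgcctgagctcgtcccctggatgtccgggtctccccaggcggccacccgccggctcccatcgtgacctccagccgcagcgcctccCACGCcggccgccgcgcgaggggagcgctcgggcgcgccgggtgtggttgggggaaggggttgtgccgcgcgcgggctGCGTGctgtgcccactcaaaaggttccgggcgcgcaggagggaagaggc
ABCC2: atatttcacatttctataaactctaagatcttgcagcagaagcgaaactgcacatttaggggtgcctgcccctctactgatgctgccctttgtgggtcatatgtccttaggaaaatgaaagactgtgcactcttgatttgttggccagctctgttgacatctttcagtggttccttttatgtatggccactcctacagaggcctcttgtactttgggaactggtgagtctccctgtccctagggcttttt
ABCA2: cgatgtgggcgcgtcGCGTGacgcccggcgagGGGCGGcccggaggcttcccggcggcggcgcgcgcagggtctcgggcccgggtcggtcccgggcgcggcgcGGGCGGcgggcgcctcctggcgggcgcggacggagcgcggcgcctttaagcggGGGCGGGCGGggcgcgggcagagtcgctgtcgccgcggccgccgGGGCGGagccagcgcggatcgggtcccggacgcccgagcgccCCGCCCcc
ABCE1: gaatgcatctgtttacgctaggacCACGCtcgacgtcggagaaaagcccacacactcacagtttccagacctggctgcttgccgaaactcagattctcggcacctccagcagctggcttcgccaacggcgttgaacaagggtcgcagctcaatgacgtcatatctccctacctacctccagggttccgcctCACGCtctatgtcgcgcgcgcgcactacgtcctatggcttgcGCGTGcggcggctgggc

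The G and C share of these windows was 73.6% for ABCG2, 45.6% for ABCC2, 85.6% for ABCA2 and 60.0% for ABCE1, against a median of 58.4% over 27305 promoters. ABCG2 held the aryl hydrocarbon receptor core at 2 places, ABCE1 at 3 and ABCA2 at 1, and ABCA2 also held 6 GC boxes, some of them overlapping, while none of the 6 motifs was present in the ABCC2 window. Of the 46 members, 36 had a window, and 24 of these passed the filter on low counts. Among those 24, the median G and C share was 68.2%. The aryl hydrocarbon receptor core was present in 15 of them (32.6% of all promoters), the GC box in 17 (43.8%), the antioxidant element in 6 (11.1%), the CCAAT box in 5 (33.1%), the hypoxia core in 4 (18.7%) and the E-box in 4 (6.52%). The shares in brackets cover all 27305 promoters, whether or not the gene passed the filter, so the 2 sets are not alike. ABCG2 and the 7 members with a window that were called lower held the aryl hydrocarbon receptor core in 4 of 8 windows, the GC box in 4, the CCAAT box in 1 and the other 3 motifs in 0, whereas the 16 other members held these in 11, 13 and 4 windows and the antioxidant element in 6. The pair of genes named ABCF2 share the same window, so it is counted for each of them in these totals. It holds the aryl hydrocarbon receptor core, the GC box and the CCAAT box. A match is a run of letters and not a measured binding site.

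Of the 46 members, 30 passed the filter on low counts and were compared, and 16 did not. The 16 had at most 10 counts in any library, and 14 of them at most 5. They included the drug exporters ABCB1, with 0 or 1 count per library, and ABCC11, which exports cyclic nucleotides and bile salts, with 0 to 9 counts. Among lipid and bile transporters, ABCA10 had 4 to 10 counts, ABCA6 0 to 5, ABCA9 and ABCB11, the bile salt export pump, 0 to 3, ABCB4, the phosphatidylcholine floppase, 0 to 2, and ABCA8, ABCA12 and ABCG8 0 or 1. ABCG5, the sterol export partner of ABCG8, had 0 counts in all 6 libraries, as did ABCC12. The peroxisomal ABCD2 had 0 to 3 counts, ABCB5 0 to 4, and the channel regulators ABCC8 and ABCC9, subunits of ATP-sensitive potassium channels, 1 to 4 and 0 or 1. A count of 3 corresponds to between 0.166 and 0.191 CPM (counts scaled to a common library total), so differences of these genes were not detectable at this depth.

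Leaving out ABCG2, 11 of 29 tested members differed between the groups at an adjusted p under 0.05 (edgeR's quasi-likelihood test, Benjamini-Hochberg over 15089 genes), against 35.9% of all tested genes. Lower in si-METTL16 were 8 members (17.5% of all tested genes were lower) and higher were 3 (18.4%). In 15 of the 29, the 3 CPM values of one group all lay above those of the other, which held for 50.9% of all tested genes. The median log2 fold change, si-METTL16 minus si-NC, was -0.19 over the 29 members and -0.0045 over all tested genes. By subfamily, ABCA had 3 of 7 tested members lower, ABCB 1 of 5 and ABCC 3 of 7, with none higher, ABCF had 2 higher of 4, and ABCE1 and the 2 other tested members of ABCG were not called. The median coefficient of variation of the tested members within a group was 6.26% in si-NC and 6.93% in si-METTL16. Some members varied far more, among them the called ABCC6 (173% in si-METTL16) and ABCC2 (41.8% in si-METTL16). The plot of log2 fold changes sets the members side by side by role.

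**Figure D1:**
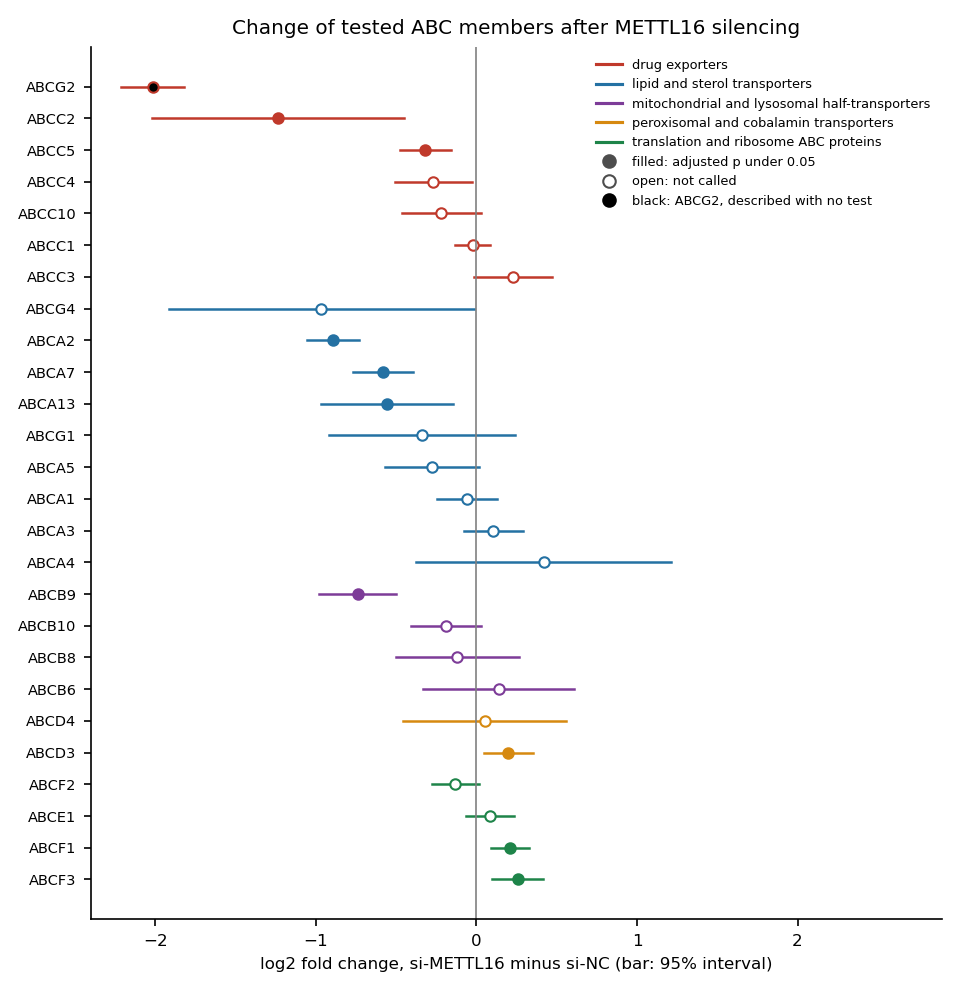
Log2 fold change (si-METTL16 minus si-NC) of 26 tested ABC members, grouped and coloured by role. Points are edgeR estimates from 3 libraries per group and bars their 95% intervals. Filled points passed the adjusted p threshold of 0.05, open points did not, and the black centre marks ABCG2, which carries no test. ABCC6 and the ABCF2 read-through gene are left out because their libraries include values of 0. The filled points of the exporters, lipid transporters and subfamily B lie left of 0, and those of ABCF1, ABCF3 and ABCD3 lie right of it.

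ABCG2 (ENSG00000118777, chr4:88090264-88231322, minus strand, GRCh38) encodes a plasma membrane exporter of many cytotoxic drugs, urate and porphyrins. Its CPM was 74.4, 77.3 and 76.0 in si-NC and 18.9, 17.3 and 20.1 in si-METTL16. Every si-METTL16 library lay far below every si-NC library, and the SD within a group was 1.43 and 1.39 CPM. The fold change was 4.04-fold lower (log2 fold change -2.02, 95% interval -2.21 to -1.82), which placed ABCG2 as number 72 from the lowest of 15089 tested genes. Since ABCG2 was chosen for its fall, the interval is no test and the estimate may be too large in size. On the scale of FPKM, which divides counts by gene length and library total and so allows levels of different genes to be compared, ABCG2 went from 9.99 ± 0.191 (SD, n = 3) to 2.43 ± 0.185 (SD, n = 3), and from rank 7 to rank 16 among the members.

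Of the other drug exporters, 6 of 8 could be tested, and 2 were lower, 0 higher and 4 not called, with a median log2 fold change of -0.24. ABCC1 (ENSG00000103222, chr16:15949577-16143074), which exports glutathione conjugates and anthracyclines, was the most abundant member of the family in both groups. It had 870, 902 and 875 CPM in si-NC against 875, 840 and 891 CPM in si-METTL16. The groups overlapped, and the log2 fold change was -0.02 (95% interval -0.13 to 0.09, edgeR adjusted p = 0.736). Its level was 80.3 ± 1.56 FPKM in si-NC and 77.9 ± 2.45 FPKM in si-METTL16 (SD, n = 3 each). The next members, ABCE1 and ABCF2, both stood at 21.0 FPKM in si-NC.

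ABCC2 (ENSG00000023839, chr10:99782640-99852594), the canalicular exporter of bilirubin and drug conjugates, was the other exporter with a large difference, at a low level. It had 67, 53 and 62 counts in si-NC and 13, 31 and 31 in si-METTL16, or 3.96, 3.12 and 3.54 CPM against 0.792, 1.99 and 1.72 CPM. All si-METTL16 values lay below all si-NC values, with library 1 lowest (log2 fold change -1.23, SE 0.33, edgeR adjusted p = 0.0253). Without si-NC replicate 1, si-NC replicate 3 or si-METTL16 replicate 3 the adjusted p from edgeR was 0.0743, 0.0673 and 0.0523, so the call rests on these libraries. ABCC5 (ENSG00000114770), an exporter of cyclic nucleotides and nucleotide analogues, fell from 64.5 ± 2.59 to 51.8 ± 1.22 CPM (SD, n = 3 each; log2 fold change -0.32, edgeR adjusted p = 0.0103), with no overlap.

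The remaining exporters did not pass the test. ABCC4, which exports cyclic nucleotides and prostaglandins, had 290, 226 and 240 CPM in si-NC against 224, 198 and 206 CPM in si-METTL16 (log2 fold change -0.27, edgeR adjusted p = 0.079). The groups did not overlap, but si-NC replicate 1 stood well above the others, and without si-NC replicate 2 the log2 fold change was -0.35 and the gene passed (edgeR adjusted p = 0.046). ABCC3, an exporter of bile salts and glucuronides, was the only exporter with a positive log2 fold change (0.23, 95% interval -0.01 to 0.47, edgeR adjusted p = 0.124), and it passed without si-NC replicate 1 (edgeR adjusted p = 0.0311). ABCC10, which transports taxanes, had a log2 fold change of -0.22 (edgeR adjusted p = 0.146).

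Summed over the 9 drug exporters, the FPKM was 118, 117 and 115 in the si-NC libraries and 104, 99.2 and 106 in the si-METTL16 libraries. This sum holds ABCG2, whose fall prompted the choice of the family, so the difference is a description only. ABCC1 made up 68.8% of the sum in si-NC and 75.7% in si-METTL16, and ABCG2 8.56% and 2.36%. Without ABCG2, the sum was 108, 106 and 105 FPKM in si-NC and 101, 97.0 and 103 in si-METTL16, a ratio of means of 0.942. The ratio was lower for lipid and sterol transporters (0.858), mitochondrial and lysosomal half-transporters (0.851) and peroxisomal and cobalamin transporters (0.881). For the members that work on ribosomes it was 1.04. For channel regulators and other members, at only 0.0744 FPKM in si-NC, it was 0.274. A lower sum was thus not particular to the exporters.

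**Figure D2:**
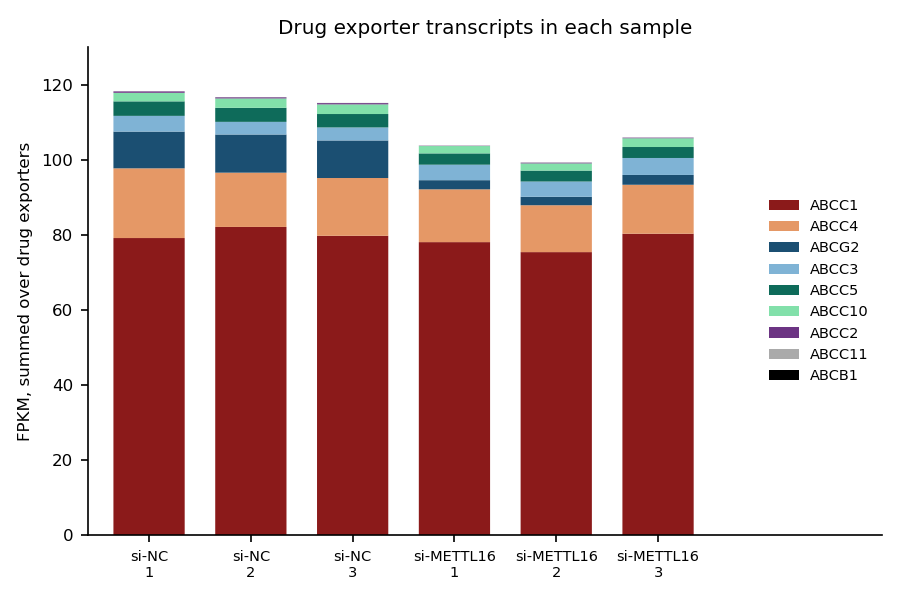
FPKM (counts per gene length and library total) summed over the 9 drug exporters in each of the 6 libraries; each bar is 1 library and each colour 1 gene. ABCC1 fills most of every bar, and the dark blue ABCG2 segment shrinks from a mean of 9.99 to 2.43 FPKM, while ABCC11 and ABCB1 are too low to be seen.

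Among the lipid and sterol transporters, 9 of 18 were tested, and 3 were lower, 0 higher and 6 not called, with a median log2 fold change of -0.34. ABCA2 (ENSG00000107331, chr9:137007227-137028922), a transporter of late endosomes and lysosomes linked to sphingolipids and cholesterol, had 66.0, 62.8 and 63.8 CPM in si-NC. It had 35.8, 33.7 and 34.2 CPM in si-METTL16. The groups were wide apart, with si-METTL16 at 53.8% of the control level (log2 fold change -0.89, SE 0.07, edgeR adjusted p = 0.00021). ABCA7 (ENSG00000064687, chr19:1040101-1065572), a phospholipid transporter associated with Alzheimer's disease, had 33.4, 31.6 and 31.3 CPM in si-NC against 21.7, 20.8 and 22.0 CPM in si-METTL16. The values of each group lay close together and did not overlap (log2 fold change -0.58, SE 0.08, edgeR adjusted p = 0.0017).

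ABCA13 (ENSG00000179869, chr7:48171458-48647496), a very large member of the subfamily, had 7.63, 7.37 and 5.93 CPM in si-NC against 4.20, 4.55 and 5.45 CPM in si-METTL16. The nearest libraries of the groups were almost level, and the call (log2 fold change -0.56, SE 0.17, edgeR adjusted p = 0.043) was lost in 8 of 13 alternatives. Leaving out si-NC replicate 1 or 2, or si-METTL16 replicate 1 or 2, gave adjusted p from edgeR of 0.116, 0.111, 0.118 and 0.108. ABCA1, which loads cholesterol onto apolipoprotein A-I, had a log2 fold change of -0.06 (95% interval -0.25 to 0.13), and ABCA3, the lipid transporter of lamellar bodies, had 0.10 (95% interval -0.08 to 0.29). ABCA5 had -0.28 (95% interval -0.57 to 0.02). ABCA4, the retinoid transporter of photoreceptors, had only 17 to 34 counts and a log2 fold change of 0.42 (95% interval -0.37 to 1.21). In subfamily G, the sterol transporter ABCG1 had 2.43 ± 0.596 CPM in si-NC against 1.92 ± 0.0791 CPM in si-METTL16 (SD, n = 3 each), and ABCG4, with 7 to 21 counts, had a log2 fold change of -0.97 (95% interval -1.92 to -0.01, edgeR adjusted p = 0.104). Neither passed the test, and both are too low for a change smaller than their intervals to be seen.

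**Figure D3:**
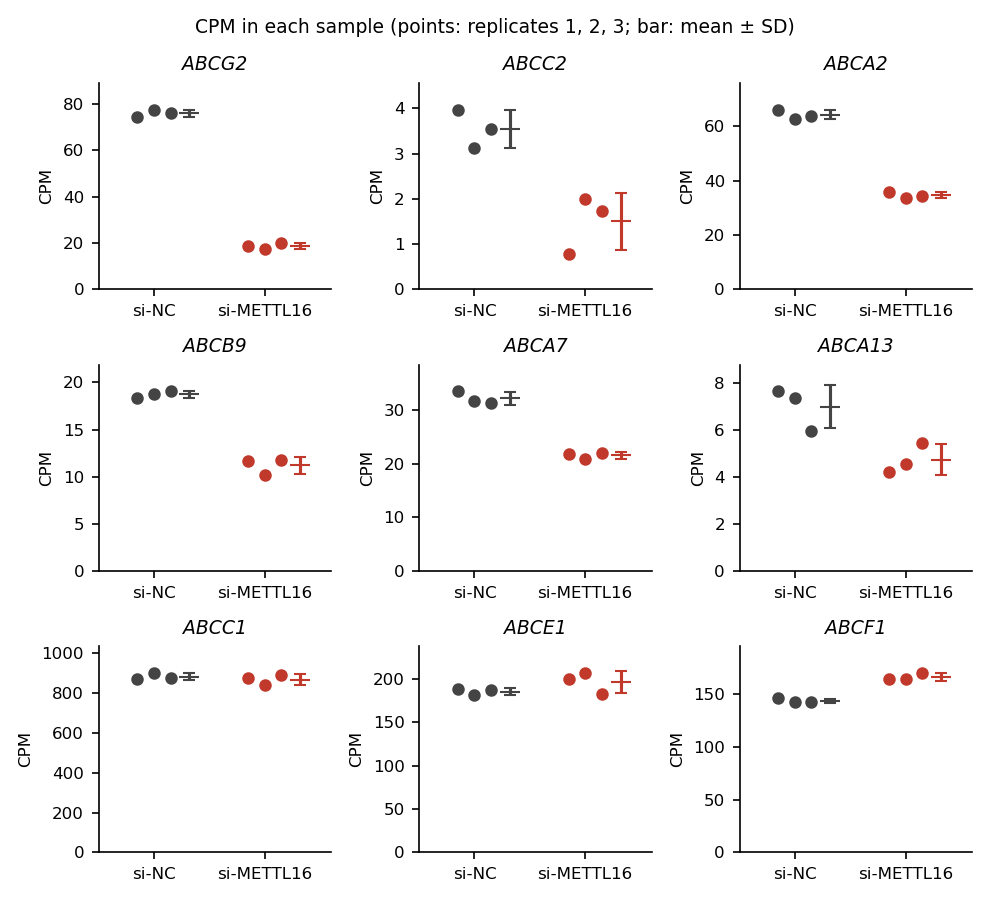
CPM (counts scaled to a common total) of 9 ABC members in each library, with si-NC in grey and si-METTL16 in red. Points are replicates 1, 2 and 3 from left to right and the bars the mean ± SD; every axis starts at 0. ABCG2, ABCC2, ABCA2, ABCB9, ABCA7 and ABCA13 are lower in all 3 si-METTL16 libraries, ABCC1 and ABCE1 overlap between the groups, and ABCF1 is higher in all 3.

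Of the members of subfamily B that work in mitochondria and lysosomes, 1 was called. ABCB9 (ENSG00000150967, chr12:122920951-122981649), a peptide transporter of lysosomes, had 18.3, 18.8 and 19.1 CPM in si-NC against 11.6, 10.2 and 11.8 CPM in si-METTL16. The groups did not overlap (log2 fold change -0.74, SE 0.10, edgeR adjusted p = 0.0017). The gene overlaps OGFOD2 and ARL6IP4 on the other strand, and the use of strand in counting is not given in the sources used here, so reads of these genes cannot be told apart. ABCB10, a haem biosynthesis protein of the inner mitochondrial membrane, had a log2 fold change of -0.19 (95% interval -0.41 to 0.03), ABCB8 -0.12 (95% interval -0.50 to 0.27) and ABCB6, a porphyrin transporter that overlaps another gene on its strand, 0.14 (95% interval -0.33 to 0.61).

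ABCD3 (ENSG00000117528, chr1:94418455-94518666), a peroxisomal importer of branched-chain and bile acid precursors, had 85.8, 84.7 and 92.5 CPM in si-NC against 96.8, 103 and 102 CPM in si-METTL16. All si-METTL16 values were higher, but the gene lay at the threshold (log2 fold change 0.20, edgeR adjusted p = 0.0496), and the call was lost without any 1 of the 6 libraries, with edgeR adjusted p between 0.0606 and 0.149. ABCD4, a lysosomal protein of cobalamin release, had 8.02 ± 0.659 CPM in si-NC against 8.31 ± 2.33 CPM in si-METTL16 (SD, n = 3 each; log2 fold change 0.05, 95% interval -0.46 to 0.56).

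The members that work on ribosomes were among the most abundant of the family. ABCE1 (ENSG00000164163, chr4:145097932-145129179), which splits ribosomes after termination, had 188, 181 and 186 CPM in si-NC against 200, 207 and 183 CPM in si-METTL16. The groups overlapped (log2 fold change 0.08, 95% interval -0.06 to 0.23, edgeR adjusted p = 0.328), and the gene overlaps OTUD4 and ANAPC10 on the other strand. ABCF1 (ENSG00000204574, chr6:30571376-30597179), which binds the initiation factor eIF2, had 146, 142 and 142 CPM in si-NC against 164, 164 and 170 CPM in si-METTL16. The 3 si-METTL16 libraries all lay higher (log2 fold change 0.21, SE 0.05, edgeR adjusted p = 0.0169), and the call was lost without si-NC replicate 2 or 3 or si-METTL16 replicate 3 (edgeR adjusted p 0.0561, 0.0694 and 0.0584).

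ABCF3 (ENSG00000161204), a member of the same subfamily, had 54.8, 53.4 and 57.0 CPM in si-NC against 63.1, 67.4 and 66.9 CPM in si-METTL16. It was higher in all 3 si-METTL16 libraries (log2 fold change 0.26, SE 0.07, edgeR adjusted p = 0.0231), but it lost the call without si-NC replicate 1 or 2 or si-METTL16 replicate 2 or 3 (edgeR adjusted p 0.062, 0.080, 0.0712 and 0.062). ABCF2 (ENSG00000033050) had 99.2 ± 2.63 CPM in si-NC against 90.6 ± 3.78 CPM in si-METTL16 (SD, n = 3 each), which did not overlap and did not pass (log2 fold change -0.13, edgeR adjusted p = 0.14). The other gene named ABCF2 (ENSG00000285292) is a read-through into H2BK1 in GENCODE v44 and overlaps ABCF2 on the same strand over 15683 bases. It had 110, 88 and 95 counts in si-NC and 129, 131 and 0 in si-METTL16, where the value of 0 stands in replicate 3 alone, so the division of reads between these 2 genes is uncertain. Summed over ABCE1, ABCF1, ABCF2 and ABCF3, the level was 66.8 ± 0.973 FPKM in si-NC and 69.3 ± 1.04 FPKM in si-METTL16 (SD, n = 3 each).

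ABCC6, the ATP release transporter mutated in pseudoxanthoma elasticum, was the only tested member of the remaining group of channel regulators and other transporters. It had 11, 14 and 12 counts in si-NC and 0, 3 and 0 in si-METTL16. The sum in si-METTL16 was 8.22% of the control after scaling to library totals, with a 95% counting interval of 1.62% to 25.9% that covers counting error only (edgeR adjusted p = 0.0175). The call was lost without si-NC replicate 2, si-METTL16 replicate 1 or si-METTL16 replicate 3 (edgeR adjusted p 0.0539, 0.0511 and 0.0507). Its near-identical pseudogenes had 23, 42 and 39 against 11, 9 and 15 counts (ABCC6P1) and 17, 20 and 10 against 7, 3 and 7 counts (ABCC6P2), so which of the 3 genes the reads came from is uncertain.

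**Figure D4:**
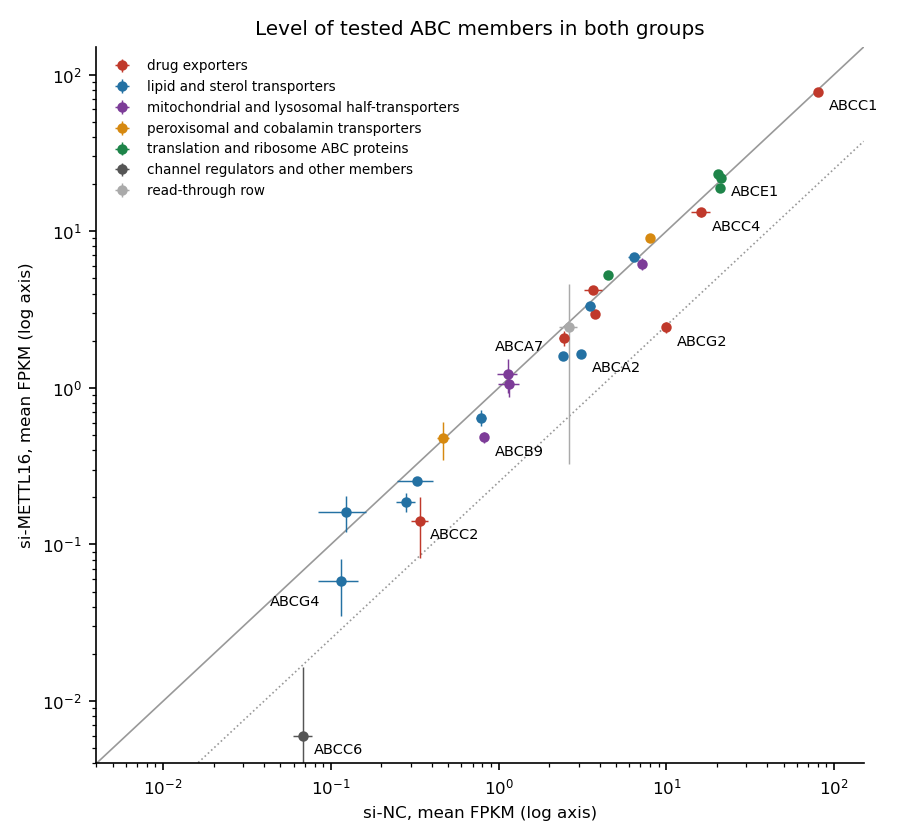
Mean FPKM of 28 tested members in si-METTL16 (vertical) against si-NC (horizontal), both on log axes, coloured by role. Points are means of 3 libraries and bars ± SD, with lower bars cut short where they would pass 0; the solid line marks equal levels and the dotted line a 4-fold lower level. ABCG2 lies on the dotted line at 9.99 and 2.43 FPKM, ABCC1 near the solid line at 80.3 and 77.9 FPKM, and ABCC6 at the lowest level.

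Drug exporters were set against the other members by counts alone. Among exporters without ABCG2, 2 of 6 tested were called and both were lower, and outside the exporters 9 of 23 were called, 6 lower and 3 higher, against 35.9% of all tested genes. The median log2 fold change was -0.24 for the exporters and -0.13 for the others. Without si-METTL16 replicate 2 both medians were -0.20, and without si-METTL16 replicate 3 they were -0.28 and -0.20, so the gap between exporters and other members was not kept without replicate 2. With a wider list that also takes ABCA2, ABCA3 and ABCC6 as exporters, 4 of 9 were called against 7 of 20. Of the 11 called members, 5 passed under every alternative they could be computed for, among them ABCA2, ABCA7, ABCB9 and ABCC5.

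Genes that act with the family were examined from lists. Of ABC genes that bear other names, the peptide transporters TAP1 and TAP2 of antigen processing had log2 fold changes of -0.07 and -0.18 and were not called, and the chloride channel CFTR had at most 1 count. Of 23 regulators of ABC genes, 18 were tested, and 6 were higher (18.4% of all tested genes) and 3 lower (17.5%), with a median log2 fold change of 0.14. PPARG, a nuclear receptor, was higher (log2 fold change 0.58), as was YBX1, a cold shock protein that binds promoters and RNA (0.38), whereas SP1, which binds GC boxes, and PPARD, a nuclear receptor, were lower (both -0.28). AHR, the aryl hydrocarbon receptor, whose core element was among the letters searched for in the promoters, was also higher (0.21). So were HIF1A (0.23) and EPAS1 (0.27), whereas ARNT (-0.37) and NFE2L2 (0.67) were not called. A link between these regulators and the promoter letters was not tested. Of 15 partners of ABC proteins, 13 were tested, 2 being higher and 3 lower, and these 5 calls stand against 35.9% of all tested genes. PDZK1, a scaffold of ABCC2 and other apical transporters, had 32, 23 and 25 counts in si-NC and 6, 4 and 6 in si-METTL16 (log2 fold change -2.26, edgeR adjusted p = 0.0022). LMBRD1, the lysosomal partner of ABCD4, was lower (-0.79), as was TAPBP, which joins TAP to MHC class I (-1.06), and EZR, the ezrin gene, which anchors apical transporters to actin, was higher (0.39).

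Of 21 other drug exporters and conjugating enzymes, 14 were tested, and 9 were lower (17.5% of all tested genes) and 0 higher (18.4%) at the same threshold, with a median log2 fold change of -0.46. GSTM2, a glutathione S-transferase, had 98, 123 and 90 counts in si-NC and 20, 20 and 23 in si-METTL16 (log2 fold change -2.26). All si-METTL16 values lay far below all si-NC values. MGST2 and GSTM3, enzymes of the same kind, had log2 fold changes of -1.41 and -0.83. Glutathione conjugates made by such enzymes are substrates of ABCC1 and ABCC2, of which the former was not called and the latter was lower.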

How the data were processed

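Libraries were made from total RNA with the SMARTER mRNA-Seq kit. The authors deposited raw counts per gene and FPKM, which they scaled by gene length and library total; the submitters' processing notes name HISAT2 2.0.4, StringTie 1.3.0 and GRCh38 (hg38), and the counter, annotation and strand setting are not given in the sources used here. The paper names limma; a count model was used because raw counts were deposited. Members and gene lists were chosen with earlier results of these data known. The groups and replicate numbers come from the sample titles. Libraries of a group differed beyond sampling noise (chi-square per degree of freedom at least 15.9).

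In R 4.3.3, counts were scaled by TMM, filtered by filterByExpr (minimum count 10, minimum total 15; 15089 genes) and tested with edgeR 4.0.16 (glmQLFit, glmQLFTest) at a Benjamini-Hochberg adjusted p under 0.05. Intervals are 95%. The precision is limited by 3 libraries per group and, for members under about 10 counts, by depth. In simulated counts of 14866 genes for si-METTL16 against si-NC, 94 of 100 genes planted at a log2 fold change of 2 in size and 73 of 100 planted at 1 were called, with 17 false calls. Far fewer genes were changed in the simulation than were called in the data, so these rates need not hold for the data. Members passing the filter were named, except a few genes that are counted in the totals but not reported here by name; each library is printed for ABCG2, for called members with a log2 fold change of 0.5 or more in size, for the 3 most abundant members and for some others chosen after their values were seen. Of the other lists, up to 4 called genes are named, and AHR, HIF1A, EPAS1, ARNT and NFE2L2 were added after their values were seen. Of the members, 10 have the coordinates of GENCODE v44. Alternatives were a replicate block, each library left out, other filters, DESeq2 1.42.0 size factors and Wald test, limma 3.58.1 on voom and log2(FPKM + 1 or 0.1), an adjusted p under 0.01 and a wider exporter list. Promoters are from RefSeq, read with Python 3.11.15 and pandas 2.3.3. Protein sequences were not used here.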

Additional observations from a re-analysis of the deposited data

How the results depend on the processing

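Under each alternative run, the 11 called members kept their direction. Calls at an adjusted p under 0.01 fell to 3035 genes, with 0 members higher, 3 lower, 0 exporters and 3 others. With limma on log2(FPKM + 1) for genes averaging 1 FPKM or more, 4 members were lower, 1 exporter and 5 others were called, and the medians were -0.17 for exporters and -0.075 for the others; with log2(FPKM + 0.1) 4 were lower, with 1 exporter and 5 others called. With log2(FPKM + 1) and no filter, 1 member was higher and the medians were -0.11 and -0.012. Low members such as ABCC2 and ABCA13 do not reach that FPKM minimum, and a pseudocount shrinks low values. The log2 fold change of ABCG2 was -1.68 on that scale. The wider list of exporters gave 4 called exporters. With voom values the median outside the exporters was -0.19.

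Leaving out 1 library at a time gave 0 to 2 members higher, 1 to 3 exporters called, 4 to 7 others called and medians outside the exporters from -0.20 to -0.14. The exporters' medians ranged from -0.28 to -0.20, and without si-METTL16 replicate 2 both medians were -0.20. The direction turned in 4 members that were not called: log2 fold changes lay between -0.22 and 0.012 for ABCB8, between -0.047 and 0.30 for ABCB6, between -0.17 and 0.24 for ABCD4 and between -0.55 and 0.51 for the ABCF2 read-through gene, and for the last it was 0.017 without si-NC replicate 1 and 0.51 without si-METTL16 replicate 3. The cause was not tested.

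The groups share replicate numbers. Deviations of same-numbered libraries correlated at 0.0253 to 0.0371, and those of differently numbered libraries at -0.0388 to 0.00827. Same-numbered libraries thus ranked highest, but all lay under the limit of 0.1, so the numbers were not taken as a pairing. With the replicate number as a block, 5013 genes were called, 2 members were higher and 7 lower, 2 exporters and 7 others were called, and the medians were -0.24 and -0.19. In that fit ABCC2 (adjusted p = 0.0563), ABCA13 (0.0959) and ABCD3 (0.0724) were not called and ABCC4 was (0.0285), by edgeR. Depth limits what can be said of the 16 members below the filter and of ABCC6, ABCG4 and ABCA4.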
